A study of Ovis aries with 32 samples.

Results

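Subcutaneous fat from under the skin of the sternum was compared with perirenal fat from around the kidney in 4 control ewes, by 3′ end sequencing of messenger RNA. The libraries were chosen by their labels alone, as the subcutaneous and perirenal samples of control sheep, paired by animal number. They make up 8 of the 32 libraries of the series, which also holds visceral and epicardial fat and 4 further ewes whose mothers received testosterone. The matching 8 subcutaneous and perirenal libraries of those ewes were used as a second look at the same contrast.

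All ewes, controls included, were adult daughters of dams that had been assigned to the treatments at random, with 1 daughter per dam in a treatment group. They shared housing and a maintenance diet. They were ovariectomized and given an estradiol implant, then 2 progesterone implants for 14 days and then 4 estradiol implants of 30 mm, and the fat was taken 18 h later. The contrast therefore describes ovariectomized ewes in an artificial follicular phase. The control sheep are numbered 98, 131, 132 and 201. The testosterone sheep are numbered 48, 185, 233 and 255, and between gestation days 30 and 90 their dams had 2 intramuscular injections each week of the propionate ester of testosterone (100 mg, or 1.2 mg/kg, in 2 ml of corn oil).

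White fat stores triglyceride in adipocytes, which lie among progenitor cells, fibroblasts, vessels, nerves and immune cells. Depots keep a record of where in the embryo their cells arose, in the form of homeobox and T-box transcription factors that stay on in adult progenitors and adipocytes. Subcutaneous fat lies in the body wall, whereas perirenal fat lies behind the peritoneum beside derivatives of the intermediate mesoderm, and in newborn lambs perirenal fat is the main site of brown fat, which is replaced by white fat with age.

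Total counts were 3519829 to 5354843 in the 4 subcutaneous and 5048842 to 8267824 in the 4 perirenal control libraries, and 784135 to 6538042 and 4242625 to 8085558 in those of the testosterone sheep. Levels below are counts per 1000000 counts of the library (CPM), on library sizes scaled by edgeR, and a gene's values are listed in the order of sheep 98, 131, 132 and 201. Adipocyte markers were abundant in all 8 libraries, with ADIPOQ, the adipocyte hormone adiponectin, at 9573, 12427, 14168 and 11591 CPM in subcutaneous and 7544, 14715, 10238 and 6333 CPM in perirenal fat. The fatty acid binding protein gene FABP4 was at 15628, 11724, 21329 and 22140.1 CPM in subcutaneous and 25311, 23909.8, 28252 and 17282 CPM in perirenal fat. Both ranges overlapped between the depots. Since these are whole tissues, fewer cells of a type and less RNA per cell cannot be told apart anywhere in what follows.

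Some features of the libraries moved with the depot or with a sheep. The summed level of 62 cytosolic ribosomal protein genes was 41907 to 61004 CPM in subcutaneous and 84367 to 100417 CPM in perirenal libraries, without overlap. The summed level of 28 nuclear retained and splicing transcripts was 11120.4 to 15235 CPM against 9421 to 10631 CPM, again without overlap. Perirenal libraries of sheep 131 and 132 correlated more closely with the visceral library of the same sheep (Pearson's r 0.9790 and 0.9794 across genes, which are not independent replicates) than any 2 perirenal control libraries did with each other (0.9507 to 0.9709). In the testosterone sheep, the subcutaneous library of sheep 48 was the shallowest, and its level of ARGLU1, a splicing gene whose transcript is retained in the nucleus, was 25675 CPM.

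A gene was called when its false discovery rate (FDR) in edgeR's quasi-likelihood test, with the sheep as a block, was under 0.05. Higher and lower below mean higher and lower in subcutaneous than in perirenal fat of the same sheep. In the control sheep 2707 of 12402 genes tested were called (21.8%), 1279 of them higher (10.3%) and 1428 lower (11.5%). The difference was over 2-fold for 486 of the higher and 532 of the lower genes. The values of the 2 depots did not overlap for 1997 of the called genes, and for 2739 of all genes tested (22.1%). The median log2 fold change over all genes tested was 0.02, and 47.2% of the called genes were higher. On library totals without edgeR's scaling the median was 0.13 and 63.7% of 2939 called genes were higher. Without sheep 98 the number of called genes was 1195, and without sheep 131 it was 1612.

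**Figure D1:**
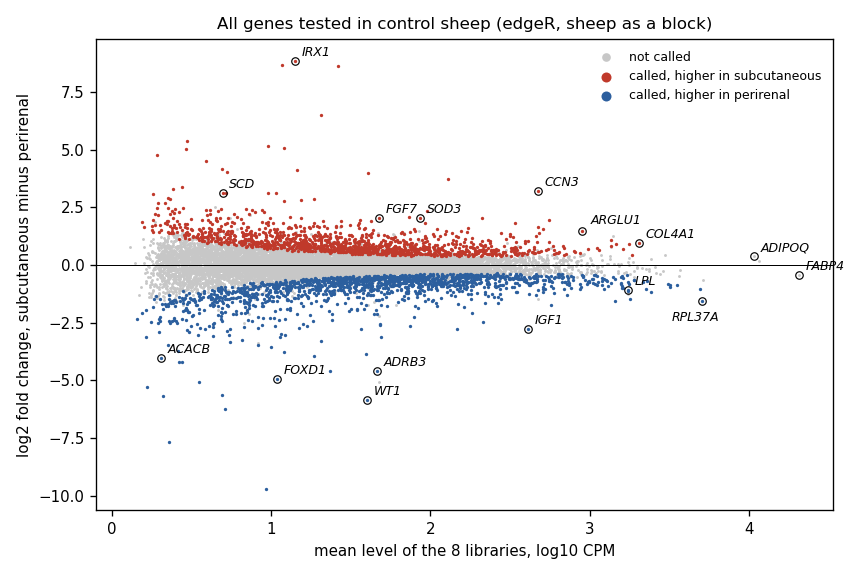
Mean level of each of the 12402 genes tested over the 8 control libraries (x axis, log10 CPM) against its log2 fold change, subcutaneous minus perirenal (y axis). Red and blue points are genes called higher and lower, grey points are genes not called, and circles mark named genes. The largest differences, among them IRX1, WT1 and FOXD1, belonged to transcription factors of low to moderate level, while ADIPOQ and FABP4, at the right edge, were not called. Fitted values of genes with 3 or fewer counts in 1 depot depend on a prior count and are drawn for position only.

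The sharpest differences lay in transcription factors that mark body position. TBX15, a T-box gene, and a pair of Iroquois genes, IRX1 and IRX2, were present in subcutaneous fat and nearly absent from perirenal fat, and WT1, TCF21 and FOXD1 showed the reverse. A list of regional transcription factors outside the HOX clusters held 63 genes, of which 38 were tested. Of these 38, 17 were higher and 11 lower, with a median log2 fold change of 0.47 against 0.02 over all genes. Members nearly absent from 1 depot, such as IRX1, TBX15 and TCF21, passed the filter on low counts through the other depot alone, which raises the share called. Over all genes the shares were 10.3% and 11.5%. Without sheep 98 the lower members numbered 7. With the ribosomal sum as a covariate 5 were higher and 4 lower, from a fit that, over all genes, called only 92.

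IRX1, an Iroquois homeobox gene, was at 35.7, 32.9, 21.2 and 22.4 CPM in subcutaneous and 0, 0, 0.129 and 0 CPM in perirenal fat. It rested on 491 counts in subcutaneous and 1 count in perirenal fat, a ratio of 708 on the CPM scale (95% counting interval 126 to 28014). Its neighbour IRX2 was at 54.9, 36.9, 35.3 and 34.7 CPM in subcutaneous and 0.451, 0.468, 0.386 and 0.3998 CPM in perirenal fat, with every subcutaneous library far above every perirenal one (log2 fold change 6.52, SE 0.262, adjusted p = 7.30e-07). IRX5 was at 18.4, 18.1, 24.1 and 23.1 CPM in subcutaneous and 3.01, 2.50, 2.71 and 4.40 CPM in perirenal fat (log2 fold change 2.77, adjusted p = 1.79e-04). The 4 libraries of 1 depot did not overlap those of the other for any of these 3 genes. IRX3, which was expressed in both depots, was at 95.5 ± 24.4 CPM in subcutaneous and 58.2 ± 14.7 CPM in perirenal fat (log2 fold change 0.74, SE 0.193, adjusted p = 0.0226). Its adjusted p was 0.083 without sheep 131 and 0.076 without sheep 132.

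TBX15, which patterns the trunk wall and is a known marker of subcutaneous preadipocytes, was at 19.6, 15.9, 42.6 and 15.3 CPM in subcutaneous and 0.1503, 0, 0 and 0 CPM in perirenal fat. Over the 4 sheep this was 417 counts against 1 (ratio 601, interval 107 to 23800.2). Sheep 132 had the highest subcutaneous value. HAND2, a helix-loop-helix gene of heart and limb, was lower in level, with 66 counts against 3 (ratio 31.7, interval 10.4 to 158). In the annotation HAND2 overlaps a locus without a gene name, which had 105 counts against 3, so reads may be shared.

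Some other body wall and limb patterning genes were higher in subcutaneous fat by smaller steps. Related genes of the list were not called, such as PRRX1, MEOX2 and TBX18 (log2 fold changes -0.50, -0.02 and -0.37), and DLX5, given below, was lower. ZFHX4, a large zinc finger homeobox gene, was at 179, 169, 216 and 168 CPM in subcutaneous and 65.2, 72.8, 60.8 and 65.4 CPM in perirenal fat (log2 fold change 1.49, SE 0.142, adjusted p = 2.74e-04). EMX2, a homeobox gene also used in the urogenital system, was at 44.3, 39.3, 21.9 and 46.9 CPM in subcutaneous and 11.1, 17.8, 3.99 and 19.8 CPM in perirenal fat (log2 fold change 1.69, SE 0.234, adjusted p = 0.00148), and SHOX2, a limb skeleton gene, at 52.2, 45.4, 49.995 and 51.1 CPM in subcutaneous and 32.5, 21.4, 14.0 and 24.99 CPM in perirenal fat (log2 fold change 1.18, SE 0.197, adjusted p = 0.00328). Groups did not overlap for any of the 3. The mesenchymal genes TWIST1, TWIST2, PRRX2, MSX1, MSX2, OSR2 and MEOX1 were also called higher, with log2 fold changes from 0.53 for MEOX1 to 1.90 for MSX2. Of these, MSX1, MSX2, OSR2 and MEOX1 were not called without sheep 98 (adjusted p 0.0985 to 0.204) or without sheep 132 (0.0665 to 0.169), MSX1 and MSX2 were not called without sheep 201, and OSR2 and MEOX1 were not called without sheep 131.

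WT1, a zinc finger gene of kidney, mesothelium and visceral fat progenitors, was at 1.20, 0.796, 2.90 and 0.546 CPM in subcutaneous and 53.0, 59.4, 94.4 and 108 CPM in perirenal fat (log2 fold change -5.86, SE 0.335, adjusted p = 2.27e-05). TCF21, a mesodermal helix-loop-helix gene of kidney and heart lining, had no count in the 4 subcutaneous libraries, where 3 counts would be 0.167 CPM over the group, and was at 20.9, 10.3, 19.2 and 24.2 CPM in perirenal fat. It was at least 109.8-fold lower in subcutaneous fat, from the pooled perirenal level of 18.4 CPM. FOXD1, a marker of kidney stroma, was at 0, 1.33, 0.223 and 1.09 CPM in subcutaneous and 18.6, 22.1, 25.6 and 18.0 CPM in perirenal fat (log2 fold change -4.93, SE 0.470, adjusted p = 3.52e-04). All 4 perirenal libraries of these 3 genes were above all 4 subcutaneous ones.

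The level of WT1 in the other depots was also high, at 82.0 to 155 CPM in visceral and 54.9 to 74.4 CPM in epicardial control libraries. FOXD1 was at 0.171 to 0.986 CPM in visceral and 1.73 to 5.77 CPM in epicardial fat, so that the perirenal libraries of sheep 131 and 132, at 22.1 and 25.6 CPM, lay far above any control visceral library. Further members lower in subcutaneous fat were ALX1, a craniofacial homeobox gene (1 count against 106, ratio of perirenal to subcutaneous 73.5, interval 12.9 to 2931), and EYA4, a transcriptional co-activator (3 counts against 186, ratio 43.0, interval 14.5 to 210.4). DMRT2, a gene of somite development, was at 41.0, 53.9, 52.0 and 52.2 CPM in subcutaneous and 127, 165, 94.8 and 99.2 CPM in perirenal fat (log2 fold change -1.23, SE 0.172, adjusted p = 0.00150). NR2F1, FOXC1, GATA6, DLX5 and FOXC2 were called lower as well, with log2 fold changes from -2.02 for DLX5 to -0.85 for FOXC1. Without sheep 98, DLX5, FOXC2, GATA6 and NR2F1 were not called (adjusted p 0.0505 to 0.122), and DLX5, FOXC2 and GATA6 were also not called without at least 1 of the other sheep.

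**Figure D2:**
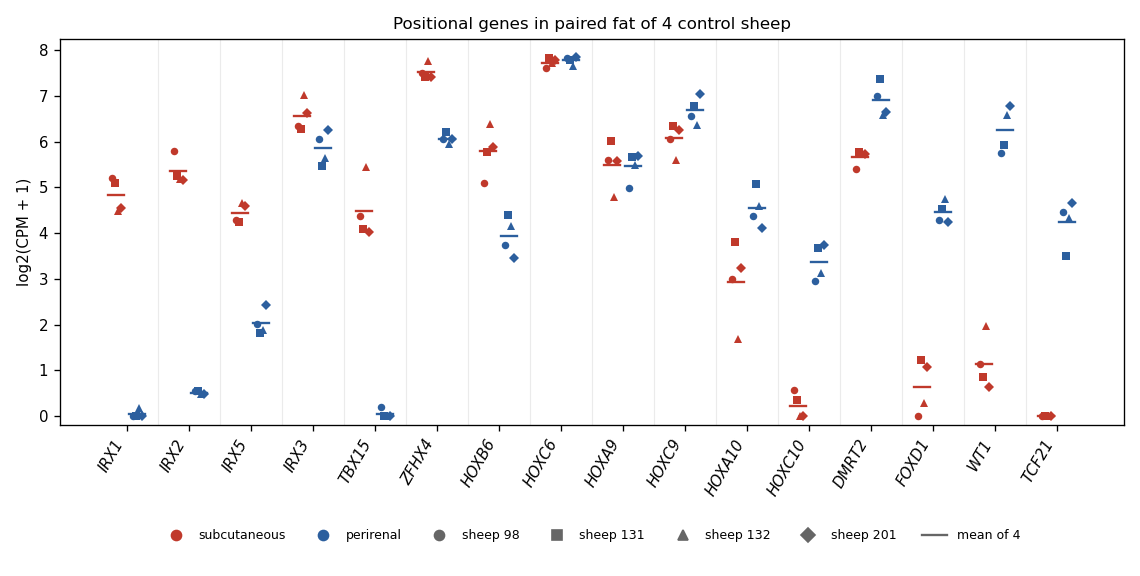
Level of 16 positional transcription factors in each of the 8 control libraries (y axis, log2 of CPM plus 1), with red for subcutaneous and blue for perirenal fat, 1 marker shape per sheep and a bar for the mean of 4. IRX1, IRX2 and TBX15 lie near 0 in perirenal fat, TCF21 and HOXC10 near 0 in subcutaneous fat, and HOXC6 and HOXA9 lie at the same height in both.

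HOX genes, which mark position along the head to tail axis, differed less as a set. Of 23 tested members 3 were higher and 3 lower (26.1% called, near the 21.8% of all genes), with a median log2 fold change of 0.15. HOXC6, the most abundant of them, was at 193, 225, 209 and 218 CPM in subcutaneous and 227, 218, 199 and 229 CPM in perirenal fat, with a log2 fold change of -0.02 (SE 0.120, adjusted p = 0.919). HOXA9 and HOXC8 likewise overlapped between the depots, with log2 fold changes of 0.07 (SE 0.212) and 0.07 (SE 0.151).

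The 3 higher HOX genes were HOXA3, HOXB6 and HOXB8, and the 3 lower ones HOXA10, HOXC9 and HOXC10. HOXB6 was at 33.3, 53.4, 83.0 and 58.0 CPM in subcutaneous and 12.3, 20.1, 16.7 and 9.996 CPM in perirenal fat (log2 fold change 1.94, SE 0.222, adjusted p = 6.15e-04), and HOXB8 at 9.82, 17.5, 18.7 and 17.5 CPM in subcutaneous and 5.26, 4.06, 2.71 and 3.40 CPM in perirenal fat (log2 fold change 2.05, SE 0.317, adjusted p = 0.00237). Both were higher in all 4 sheep without overlap, though reads of HOXB8 may be shared with overlapping annotated genes of its cluster. HOXA3 was also higher (log2 fold change 0.55), with adjusted p from 0.0762 to 0.132 without sheep 98, 131 or 132. Among the lower genes, HOXC10 had 3 counts in subcutaneous and 242 in perirenal fat, at 0.479, 0.265, 0 and 0 CPM in subcutaneous and 6.76, 11.7, 7.73 and 12.4 CPM in perirenal fat (ratio of perirenal to subcutaneous 56.0, interval 18.9 to 273). No visceral control library held a count of HOXC10. HOXA10 was at 6.95, 13.0, 2.23 and 8.37 CPM in subcutaneous and 19.7, 32.6, 23.2 and 16.4 CPM in perirenal fat (log2 fold change -1.64, SE 0.332, adjusted p = 0.00926). Visceral control libraries held it at 0 to 0.278 CPM. HOXC9 was at 65.6, 80.4, 47.8 and 75.9 CPM in subcutaneous and 92.9, 109, 81.5 and 129.8 CPM in perirenal fat (log2 fold change -0.60, SE 0.133, adjusted p = 0.0115).

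Visceral and epicardial fat of the control sheep give further levels for these genes, with no test. IRX1 was at 0 to 0 and 0 to 0.186 CPM and IRX2 at 0.133 to 0.416 and 0.186 to 0.345 CPM, so that both were near absent from every depot but the subcutaneous one. TBX15 was at 0.329 to 1.53 CPM in visceral and 7.25 to 9.12 CPM in epicardial fat. TCF21, at 11.5 to 17.8 CPM in visceral and 56.5 to 90.4 CPM in epicardial fat, had counts in every visceral and epicardial library. HOXC10 had no count in epicardial fat either, so that the perirenal libraries held nearly all of its counts.

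Beside the transcription factors, the largest differences toward subcutaneous fat included CXCL14, LGI1, EDIL3 and CCN3. CXCL14, a chemokine of skin and adipose tissue, was at 13.7, 2.39, 74.8 and 2.55 CPM in subcutaneous and 0.601, 0.468, 0.644 and 0.3998 CPM in perirenal fat. Its subcutaneous values spanned from 2.39 CPM in sheep 131 to 74.8 CPM in sheep 132 and still did not overlap the perirenal ones (log2 fold change 5.06, SE 0.664, adjusted p = 0.00207). LGI1, a secreted protein known from synapses, was at 30.4, 21.2, 50.2 and 8.55 CPM in subcutaneous and 0.751, 0.936, 2.19 and 2.20 CPM in perirenal fat (log2 fold change 4.13, SE 0.459, adjusted p = 9.68e-04). EDIL3, an integrin-binding matrix protein, was at 83.4, 22.3, 145 and 49.5 CPM in subcutaneous and 16.8, 1.25, 2.45 and 2.80 CPM in perirenal fat (log2 fold change 3.98, SE 0.582, adjusted p = 0.00619), with the highest perirenal value in sheep 98. CCN3, a matricellular protein, was at 637, 752, 986 and 914 CPM in subcutaneous and 59.95, 278, 117 and 29.2 CPM in perirenal fat (log2 fold change 3.22, SE 0.561, adjusted p = 0.0114). Its adjusted p was 0.092 without sheep 98, and a second row of the count table for the same gene, CCN3_1, at 11.97 against 2.61 CPM, had a log2 fold change of 2.23.

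Genes with the smallest p combined moderate levels with a ratio that was alike in all sheep. SOD3, the extracellular superoxide dismutase, was at 154, 209, 81.9 and 100.4 CPM in subcutaneous and 43.9, 56.6, 20.7 and 20.2 CPM in perirenal fat (log2 fold change 2.02, SE 0.143, adjusted p = 4.16e-05). ITIH5, an inhibitor that binds hyaluronan, was at 305, 522, 272 and 258 CPM in subcutaneous and 91.7, 119, 51.4 and 72.0 CPM in perirenal fat (log2 fold change 2.05, SE 0.146, adjusted p = 4.16e-05). NEB, which encodes the muscle protein nebulin, was at 173, 153, 109.6 and 139 CPM in subcutaneous and 45.7, 51.0, 26.0 and 44.2 CPM in perirenal fat (log2 fold change 1.83, SE 0.144, adjusted p = 9.11e-05). For all of them the 4 subcutaneous values exceeded the 4 perirenal ones. The RefSeq annotation places SOD3 over CCDC149 and ITIH5 over 2 loci without a gene name, and since the strand setting of the counting is not given in the sources used here, reads of such pairs may be shared.

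The largest differences in the perirenal direction included, beside WT1, TCF21, FOXD1 and ADRB3, NALCN, SLITRK6, TMEM132C and ITGA8. NALCN, a sodium leak channel, was at 1.20, 3.72, 0 and 1.64 CPM in subcutaneous and 23.4, 29.2, 24.7 and 11.8 CPM in perirenal fat (log2 fold change -3.78, SE 0.524, adjusted p = 0.00284). SLITRK6, a neuronal membrane protein, was at 0.719, 2.65, 4.02 and 2.00 CPM in subcutaneous and 10.7, 24.2, 24.2 and 22.0 CPM in perirenal fat (log2 fold change -3.13, SE 0.275, adjusted p = 1.95e-04), and TMEM132C, a membrane protein, at 6.71, 3.45, 18.3 and 8.55 CPM in subcutaneous and 61.5, 27.5, 207 and 58.8 CPM in perirenal fat (log2 fold change -3.11, SE 0.183, adjusted p = 1.17e-05). The 4 perirenal values of each lay above the 4 subcutaneous ones. LRP1B, RELN and SCN7A had log2 fold changes of -3.57, -3.45 and -3.32 and were called. ITGA8, an integrin chain of kidney mesenchyme and smooth muscle, was at 1.20, 2.12, 1.12 and 2.00 CPM in subcutaneous and 11.7, 102, 14.3 and 14.0 CPM in perirenal fat (log2 fold change -3.95, SE 0.424, adjusted p = 7.59e-04), with sheep 131 far above the other perirenal libraries.

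Further genes had a place among the largest differences, smallest p or highest levels. Higher were OLFML2B, ADAMTSL1 and BICDL1 (log2 fold changes 2.82, 2.43 and 2.38) and the abundant genes SBDS, of ribosome maturation, B3GALNT1, a glycosyltransferase, and REV3L, of DNA repair (0.55, 0.58 and 0.84). SBDS had adjusted p of 0.094 without sheep 98 and 0.056 without sheep 132, and B3GALNT1 of 0.099 and 0.058. Lower were MTUS2, MARC2, MFNG, ANK3 and AIF1L, with log2 fold changes of -2.08, -1.63, -1.49, -2.78 and -1.72.

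In the Schwann cell and neuron list 5 of 10 tested members were lower and 0 higher (50% called, against 21.8% of all genes). The median log2 fold change was -1.25, and 3 members were lower without sheep 98 or without sheep 131. CDH19, a cadherin of Schwann cell precursors, was at 0.958, 1.86, 0.893 and 3.46 CPM in subcutaneous and 6.16, 7.49, 14.4 and 18.8 CPM in perirenal fat (log2 fold change -2.69, SE 0.349, adjusted p = 0.00111). Its 4 perirenal values lay above its 4 subcutaneous ones, whereas the summed level of the list overlapped, at 304 to 555 CPM in subcutaneous and 260.3 to 928 CPM in perirenal libraries.

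Genes of the adipocyte itself were called in both directions. Of 18 tested members of the adipocyte identity and adipokine list 6 were higher and 2 lower (44.4% called, against 21.8% of all genes), but only 2 were higher without sheep 132 and 3 without sheep 98 or sheep 131. ADIPOQ (log2 fold change 0.39, SE 0.195), FABP4 (-0.42, SE 0.225), the leptin gene LEP (0.21, SE 0.213), the adipogenic receptor PPARG (-0.24, SE 0.211) and the lipid droplet gene PLIN1 (0.11, SE 0.229) were not called. LEP ran from 227 to 751 CPM in subcutaneous and from 204 to 719.6 CPM in perirenal libraries. PPARG had an adjusted p of 0.0275 without sheep 201. Among the called members CIDEC, a lipid droplet fusion protein, was at 703, 752, 709 and 728 CPM in subcutaneous and 502, 583, 449 and 369.9 CPM in perirenal fat (log2 fold change 0.65, SE 0.139, adjusted p = 0.00996), without overlap. PLIN4, another droplet protein, was higher (log2 fold change 1.12, adjusted p = 0.068 without sheep 132), and in the annotation it overlaps HDGFL2, which was at 852 against 253 CPM with a log2 fold change of 1.94.

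Fatty acid synthesis was split between enzymes. Of 24 tested members 6 were higher and 6 lower (50% called, against 21.8% of all genes), with a median of -0.08. SCD, which introduces the double bond of oleate, was at 10.3, 7.96, 12.1 and 5.09 CPM in subcutaneous and 0.902, 1.56, 0.644 and 0.9996 CPM in perirenal fat (log2 fold change 3.12, SE 0.398, adjusted p = 0.00101). ELOVL6, an elongase, was at 120.03, 169, 343 and 135 CPM in subcutaneous and 58.7, 114, 164 and 49.98 CPM in perirenal fat (log2 fold change 1.05, SE 0.154, adjusted p = 0.00197), higher in each of the 4 sheep. FASN, the fatty acid synthase, was at 154, 128, 184 and 52.2 CPM in subcutaneous and 73.6, 72.2, 54.9 and 39.8 CPM in perirenal fat (log2 fold change 1.04, SE 0.205, adjusted p = 0.00794), and ACACA, the acetyl-CoA carboxylase of the cytosol, at 46.5, 72.2, 59.1 and 32.9 CPM in subcutaneous and 35.5, 40.2, 26.7 and 22.2 CPM in perirenal fat (log2 fold change 0.77, SE 0.169, adjusted p = 0.0109). ACSS2, which makes acetyl-CoA from acetate, the main lipogenic carbon source of ruminants, was at 158, 163, 122 and 71.5 CPM in subcutaneous and 52.1, 83.6, 43.7 and 53.0 CPM in perirenal fat (log2 fold change 1.15, SE 0.196, adjusted p = 0.00410). SCD did not overlap between the depots, and the other 4 did, though each was higher in subcutaneous fat in 4 of 4 sheep. ACACA was not called without sheep 131.

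The other side of this list held enzymes that were lower in subcutaneous fat. ACLY, which makes acetyl-CoA from citrate, was at 108, 95.8, 131 and 105 CPM in subcutaneous and 148, 195, 169 and 173 CPM in perirenal fat (log2 fold change -0.62, SE 0.144, adjusted p = 0.0139), and the malic enzyme ME1 at 117, 106, 122 and 120.2 CPM in subcutaneous and 242, 219, 204 and 149 CPM in perirenal fat (log2 fold change -0.76, SE 0.1498, adjusted p = 0.00675). ACACB, the carboxylase at the mitochondrial membrane whose product restrains fatty acid oxidation, was low throughout, at 0.240, 0, 0 and 0.546 CPM in subcutaneous and 3.91, 4.37, 3.22 and 4.00 CPM in perirenal fat (log2 fold change -4.03, SE 0.631, adjusted p = 0.00257). Groups did not overlap for any of these 3, and ACLY had an adjusted p of 0.065 without sheep 131. The lower members numbered 3 without sheep 131 or sheep 132.

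Of 20 tested uptake genes 1 was higher and 2 lower (15% called, below the 21.8% of all genes), and of 21 triglyceride genes 4 were higher and 3 lower (33.3%). LPL, the lipase that releases fatty acids from circulating lipoproteins, was at 992, 818, 1669 and 1006 CPM in subcutaneous and 1753, 2508, 3028 and 2159 CPM in perirenal fat (log2 fold change -1.07, SE 0.166, adjusted p = 0.00238), with every perirenal library above every subcutaneous one. DGAT1 and DGAT2, which catalyse the last step of triglyceride synthesis, were at 3.21 ± 0.778 CPM in subcutaneous and 10.3 ± 2.08 CPM in perirenal fat (log2 fold change -1.66, SE 0.262, adjusted p = 0.00269), and at 121 ± 42.7 CPM in subcutaneous and 317 ± 209.9 CPM in perirenal fat (log2 fold change -1.16, SE 0.207, adjusted p = 0.00563) respectively. GPAT3, an acyltransferase of the first step, was at 7.91, 20.7, 23.2 and 19.5 CPM in subcutaneous and 62.1, 64.4, 61.3 and 34.8 CPM in perirenal fat (log2 fold change -1.63, SE 0.296, adjusted p = 0.00674). In the triglyceride list these were the 3 lower ones, and CIDEC, FITM2, PLIN3 and PLIN4, which act on the lipid droplet, were the 4 higher ones. Without sheep 132 the higher members numbered 2, with PLIN3 and PLIN4 not called (adjusted p 0.0925 and 0.068), and PLIN3 was not called without sheep 98 or 131 either. DGAT1 overlaps SCRT1 in the annotation, CAV2 overlaps TFEC and SLC2A4 overlaps YBX2. CAV2, a caveolin of the cell surface, was at 423, 389, 540.4 and 461 CPM in subcutaneous and 263, 238, 306 and 144 CPM in perirenal fat (log2 fold change 0.99, SE 0.173, adjusted p = 0.00409).

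**Figure D3:**
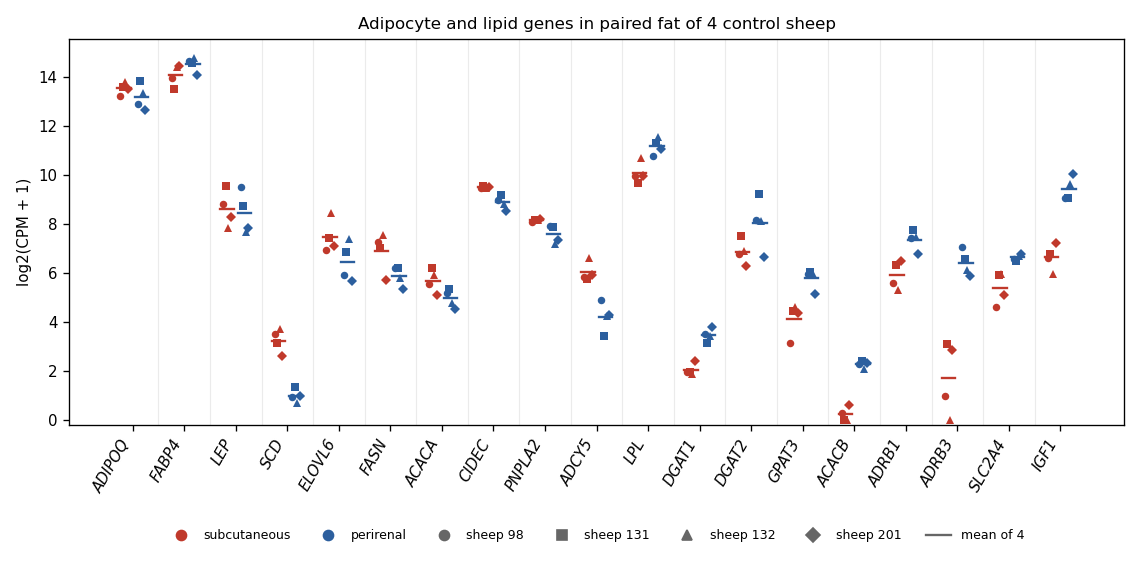
Level of 19 adipocyte, lipid and insulin pathway genes in each of the 8 control libraries (y axis, log2 of CPM plus 1), with red for subcutaneous and blue for perirenal fat, 1 marker shape per sheep and a bar for the mean of 4. ADIPOQ, FABP4 and LEP overlap between depots, SCD lies higher in subcutaneous fat, and ACACB, ADRB3 and IGF1 lie higher in perirenal fat.

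Lipolysis, the release of fatty acids in response to catecholamines, differed at its receptors. ADRB3, the β3-adrenergic receptor, was at 0.958, 7.70, 0 and 6.19 CPM in subcutaneous and 132, 95.1, 69.7 and 57.2 CPM in perirenal fat (log2 fold change -4.62, SE 0.705, adjusted p = 0.00723). All 4 perirenal libraries were far above the subcutaneous ones. ADRB1, the β1 receptor, was at 47.9, 79.9, 38.8 and 88.8 CPM in subcutaneous and 172, 217, 175 and 108 CPM in perirenal fat (log2 fold change -1.41, SE 0.285, adjusted p = 0.0127), and its adjusted p was 0.065 without sheep 98. FFAR4, a fatty acid receptor, was lower too (log2 fold change -1.41), with adjusted p from 0.0544 to 0.0921 without sheep 98, 131 or 201. Downstream, ADCY5, the adenylyl cyclase, was at 56.3, 53.4, 96.4 and 59.9 CPM in subcutaneous and 28.7, 9.67, 17.9 and 18.6 CPM in perirenal fat (log2 fold change 1.90, SE 0.252, adjusted p = 0.00170), and PNPLA2, the first triglyceride lipase, at 269.5, 288, 288 and 297 CPM in subcutaneous and 243, 236, 146 and 161 CPM in perirenal fat (log2 fold change 0.60, SE 0.162, adjusted p = 0.0252), with adjusted p of 0.104 without sheep 132 and 0.0783 without sheep 201. Neither ADRB1, ADCY5 nor PNPLA2 overlapped between the depots. The hormone-sensitive lipase LIPE was at 2103 ± 384 CPM in subcutaneous and 2617 ± 819.6 CPM in perirenal fat and not called (log2 fold change -0.25, SE 0.230). In all, 3 of 25 tested members were higher and 3 lower, close to the share of all genes, and without sheep 132 and 98 respectively the higher members numbered 1 and the lower members 1.

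UCP1, the uncoupling protein that defines active brown fat, was close to absent in both depots, at 0, 0.531, 0 and 0.182 CPM in subcutaneous and 0, 0, 0.129 and 0 CPM in perirenal fat, and was not tested. Other members of the brown and beige list were 2 higher and 5 lower of 11 tested (63.6% called, against 21.8% of all genes). Their median log2 fold change was -0.72. The lower ones were ADRB3, CPT1B, PPARGC1A, PRDM16 and EBF2. EBF2, a selector of brown preadipocytes, was at 109, 109, 151 and 139 CPM in subcutaneous and 240.0, 182, 292 and 155 CPM in perirenal fat (log2 fold change -0.72, SE 0.162, adjusted p = 0.0118), and PPARGC1A, a co-activator of mitochondrial genes, at 0.958, 4.25, 3.12 and 0.910 CPM in subcutaneous and 5.11, 7.49, 6.57 and 4.998 CPM in perirenal fat (log2 fold change -1.49, SE 0.374, adjusted p = 0.0190). The higher ones were DIO2, which activates thyroid hormone (log2 fold change 1.78), and the lipid droplet gene CIDEA (0.71). Without sheep 98, 1 member was lower and 0 higher, and without sheep 131 CIDEA was not called (adjusted p 0.0754). CPT1B and PPARGC1A also missed the threshold without sheep 201 (adjusted p 0.0800 and 0.051), and CPT1B, DIO2 and CIDEA without sheep 132 (0.0706, 0.074 and 0.0841).

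The called genes of oxidative metabolism were lower, with 1 exception. Of 33 tested nuclear genes for oxidative phosphorylation 15 were lower and 0 higher (45.5% called, against 21.8% of all genes). Their median log2 fold change was -0.45. NDUFA13, a subunit of complex I, was at 129.6, 111, 118 and 99.3 CPM in subcutaneous and 243, 209, 209 and 238 CPM in perirenal fat (log2 fold change -0.95, SE 0.129, adjusted p = 0.00129), and ATP5PD, of the ATP synthase, at 288, 219, 285 and 222 CPM in subcutaneous and 491, 444, 487 and 368 CPM in perirenal fat (log2 fold change -0.80, SE 0.122, adjusted p = 0.00235). Of 23 fatty acid oxidation genes 8 were lower, with a median of -0.24, and 1 was higher, the acyl-CoA dehydrogenase ACADL (log2 fold change 0.50, adjusted p = 0.0440, and 0.0984 to 0.207 without sheep 98, 131 or 201). EHHADH, a peroxisomal enzyme, was at 59.9, 86.3, 85.0 and 79.1 CPM in subcutaneous and 153, 184, 199.5 and 165 CPM in perirenal fat (log2 fold change -1.16, SE 0.124, adjusted p = 3.90e-04). CPT1B, the muscle-type carnitine transferase, was lower by a log2 fold change of -1.61. The lower members numbered 10 and 3 without sheep 98, and those of fatty acid oxidation 4 without sheep 131 and 5 without sheep 132. Both numbered 0 with the ribosomal sum as a covariate.

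Nearly all ribosomal protein genes were lower. Of 62 tested members 55 were lower and 0 higher (88.7% called, against 21.8% of all genes). The median log2 fold change was -0.73, and 35 members were lower without sheep 98. RPL37A was at 3282, 1811, 2014 and 2782 CPM in subcutaneous and 11301, 6923, 4274 and 7979 CPM in perirenal fat (log2 fold change -1.56, SE 0.177, adjusted p = 5.73e-04), and RPS12 at 275, 162, 315 and 314 CPM in subcutaneous and 1019, 873, 926 and 720.3 CPM in perirenal fat (log2 fold change -1.74, SE 0.194, adjusted p = 6.63e-04). Ribosomal protein genes have near-identical copies, and how the counting split their reads is not given. Of 32 heat shock and endoplasmic reticulum chaperones 10 were lower and 0 higher, among them HSPD1 at 64.0, 99.0, 99.3 and 102 CPM in subcutaneous and 158, 157, 212 and 155 CPM in perirenal fat (log2 fold change -0.89, SE 0.147, adjusted p = 0.00320). The lower chaperones numbered 2 without sheep 98 and 5 without sheep 131. HSP90AA1 was at 2219 ± 214 CPM in subcutaneous and 4029 ± 922 CPM in perirenal fat (log2 fold change -0.81, SE 0.171, adjusted p = 0.00894), and PABPC1, which binds the poly(A) tail, at 1743 ± 250.5 CPM in subcutaneous and 2860.2 ± 255 CPM in perirenal fat (log2 fold change -0.70, SE 0.160, adjusted p = 0.0129). Their adjusted p were 0.054 and 0.073 without sheep 98, and that of PABPC1 was 0.058 without sheep 131.

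Splicing factor transcripts moved the other way. Of 27 tested nuclear retained and splicing transcripts 15 were higher and 1 lower (59.3% called, against 21.8% of all genes). The median log2 fold change was 0.46, and 9 members were higher without sheep 98. ARGLU1 was at 1453, 1534, 854 and 1391 CPM in subcutaneous and 385, 631, 353 and 567 CPM in perirenal fat (log2 fold change 1.47, SE 0.153, adjusted p = 3.72e-04), and CLK1, a kinase of splicing factors, at 438, 432, 544 and 354 CPM in subcutaneous and 190.1, 156, 249 and 162 CPM in perirenal fat (log2 fold change 1.26, SE 0.123, adjusted p = 2.93e-04). Levels of these lists can also follow RNA quality and the share of nuclear RNA. Because the ribosomal sums of the depots did not overlap, depot and ribosomal sum cannot be told apart in these libraries. A fit over all 16 control libraries called 3158 genes, 92 with the ribosomal sum as a covariate and 482 with the nuclear sum. Among 228 called genes that are named here or lead a list, 26 kept their call with each covariate and without each sheep in turn, among them IRX2, IRX5, TBX15, ZFHX4, WT1, TCF21, FOXD1, IGF1, SLIT2, NTN4, BMP2 and ACACB.

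Growth factor genes differed between the depots by member. IGF1, the insulin-like growth factor, was at 97.5, 108, 60.5 and 147 CPM in subcutaneous and 529, 526, 787 and 1044 CPM in perirenal fat (log2 fold change -2.78, SE 0.226, adjusted p = 2.73e-04), with every perirenal library far above every subcutaneous one. Its receptor IGF1R was at 311 ± 57.2 CPM in subcutaneous and 230.4 ± 50.3 CPM in perirenal fat (log2 fold change 0.47, SE 0.141, adjusted p = 0.0387), but was not called without sheep 98, 131 or 132 (adjusted p 0.108 to 0.201). VEGFD, a lymphangiogenic factor, was at 11.7, 20.4, 8.03 and 9.82 CPM in subcutaneous and 59.7, 50.8, 45.3 and 41.8 CPM in perirenal fat (log2 fold change -2.02, SE 0.212, adjusted p = 3.76e-04). The opposite held for FGF7, a growth factor for epithelia, at 64.9, 84.9, 102 and 49.1 CPM in subcutaneous and 12.8, 26.4, 28.3 and 11.0 CPM in perirenal fat (log2 fold change 2.02, SE 0.167, adjusted p = 1.36e-04), and for FGF18, at 5.03, 14.6, 5.58 and 7.46 CPM in subcutaneous and 1.20, 1.87, 0.902 and 2.00 CPM in perirenal fat (log2 fold change 2.42, SE 0.333, adjusted p = 0.00140). The receptor FGFR1 was at 836, 984, 829 and 784 CPM in subcutaneous and 485, 598, 467 and 549.6 CPM in perirenal fat (log2 fold change 0.74, SE 0.127, adjusted p = 0.00371). VEGFD, FGF7, FGF18 and FGFR1 did not overlap between the depots. In the annotation FGF7 overlaps FAM227B and FGFR1 overlaps LETM2. Of 28 tested members of this list 6 were higher and 5 lower (39.3% called, against 21.8% of all genes). The lower members numbered 2 without sheep 98.

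Among Wnt genes, 4 of 25 tested members were higher and 2 lower (24% called, near the 21.8% of all genes), with 1 lower without sheep 131. WNT11, a ligand of the pathway that does not act through β-catenin, was at 2.88, 3.98, 3.79 and 2.73 CPM in subcutaneous and 0.301, 0.468, 0.515 and 0.7997 CPM in perirenal fat (log2 fold change 2.69, SE 0.454, adjusted p = 0.00333). RSPO3, which amplifies Wnt signals, was at 218, 172, 76.3 and 161 CPM in subcutaneous and 72.7, 15.8, 28.5 and 21.8 CPM in perirenal fat (log2 fold change 2.33, SE 0.351, adjusted p = 0.00534), and the nuclear effector TCF7 at 21.7 ± 3.58 CPM in subcutaneous and 11.8 ± 2.49 CPM in perirenal fat (log2 fold change 0.91, SE 0.187, adjusted p = 0.00802). The receptor FZD1 was at 8.39, 11.1, 9.82 and 5.46 CPM in subcutaneous and 20.7, 37.1, 17.8 and 14.6 CPM in perirenal fat (log2 fold change -1.30, SE 0.216, adjusted p = 0.00320). The values of the 2 depots did not overlap for any of these 4 genes.

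In the TGF-beta and BMP list 2 of 32 tested members were higher and 6 lower (25% called, near the 21.8% of all genes), the latter numbering 3 without sheep 98 or sheep 131. The higher ones were both BMP ligands, BMP2 at 59.9, 45.9, 33.7 and 27.8 CPM in subcutaneous and 14.4, 12.3, 14.8 and 9.20 CPM in perirenal fat (log2 fold change 1.71, SE 0.190, adjusted p = 4.97e-04) and BMP5 at 37.4, 20.2, 70.1 and 45.1 CPM in subcutaneous and 8.56, 16.2, 15.6 and 6.20 CPM in perirenal fat (log2 fold change 1.89, SE 0.376, adjusted p = 0.0121). ID3, a transcriptional target of BMP signals, was at 204, 127, 112 and 147 CPM in subcutaneous and 414, 342, 387 and 377 CPM in perirenal fat (log2 fold change -1.37, SE 0.145, adjusted p = 3.76e-04), and LTBP1, which holds latent TGF-beta in the matrix, at 17.2, 17.5, 44.6 and 21.8 CPM in subcutaneous and 67.9, 68.2, 59.0 and 86.2 CPM in perirenal fat (log2 fold change -1.54, SE 0.280, adjusted p = 0.00675). The values of the 2 depots did not overlap for any of these 4 genes. BMP5 had adjusted p of 0.0754 without sheep 98 and 0.0551 without sheep 132.

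Guidance cues were called in both directions, 7 higher and 7 lower of 32 tested (43.75% called, against 21.8% of all genes). These numbers were 4 and 4 without sheep 98, and 4 were lower without sheep 131. SLIT2, a repellent cue, was at 2.40, 1.59, 5.13 and 1.64 CPM in subcutaneous and 20.1, 19.3, 26.9 and 20.8 CPM in perirenal fat (log2 fold change -3.05, SE 0.282, adjusted p = 2.55e-04), and SLIT3 was lower as well (log2 fold change -1.38). NRP2, a receptor for semaphorins and VEGF, was at 73.8, 69.0, 63.6 and 78.4 CPM in subcutaneous and 135, 143, 157 and 149.5 CPM in perirenal fat (log2 fold change -1.01, SE 0.131, adjusted p = 0.00105). NTN4, a netrin of basement membranes, was at 122, 192, 82.6 and 73.5 CPM in subcutaneous and 48.5, 55.2, 28.1 and 25.6 CPM in perirenal fat (log2 fold change 1.58, SE 0.139, adjusted p = 1.95e-04), and NTN1 was higher by a log2 fold change of 1.49. SLIT2, NRP2 and NTN4 did not overlap between the depots.

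Of retinoid genes, ALDH1A3 and ALDH1A1, which make retinoic acid, were the 2 lower of 13 tested members and 0 were higher (15.4% called, below the 21.8% of all genes). ALDH1A3 was at 17.0, 6.90, 28.1 and 6.73 CPM in subcutaneous and 93.8, 57.2, 106 and 68.4 CPM in perirenal fat (log2 fold change -2.61, SE 0.239, adjusted p = 2.89e-04), and ALDH1A1 at 546, 381, 219.6 and 238 CPM in subcutaneous and 1090.4, 682, 556 and 495 CPM in perirenal fat (log2 fold change -1.03, SE 0.1304, adjusted p = 9.68e-04). In the insulin list 5 of 27 members were higher and 3 lower (29.6% called, against 21.8% of all genes). The higher ones numbered 2 without sheep 131 and 3 without each of the other sheep. SLC2A4, the insulin-responsive glucose transporter, was at 23.5, 59.2, 61.8 and 32.9 CPM in subcutaneous and 94.5, 88.3, 103 and 109 CPM in perirenal fat (log2 fold change -1.22, SE 0.244, adjusted p = 0.00954). GRB14, an adaptor that inhibits the insulin receptor, was higher, at 4.55, 3.45, 2.46 and 2.36 CPM in subcutaneous and 0, 1.09, 0.258 and 0.1999 CPM in perirenal fat (log2 fold change 3.09, SE 0.645, adjusted p = 0.00878). Neither gene overlapped between the depots, whereas ALDH1A1 did. PDK4, a kinase that inhibits pyruvate dehydrogenase, was at 865 ± 184 CPM in subcutaneous and 489 ± 37.3 CPM in perirenal fat (log2 fold change 0.82, SE 0.149, adjusted p = 0.00458).

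Of 23 tested collagen chains 8 were higher and 0 lower (34.8% called, against 21.8% of all genes). The median log2 fold change was 0.43, but 3 chains were higher without sheep 132 and 4 without sheep 98 or sheep 201. COL4A1, a basement membrane chain, was at 2389, 2950.3, 2249 and 3016 CPM in subcutaneous and 1784, 1787, 1162 and 1015 CPM in perirenal fat (log2 fold change 0.94, SE 0.186, adjusted p = 0.00686), and its partner COL4A2 at 465, 469, 615 and 464 CPM in subcutaneous and 395, 353, 193 and 177 CPM in perirenal fat (log2 fold change 0.95, SE 0.250, adjusted p = 0.0307). Neither overlapped between the depots, and COL4A2 had adjusted p of 0.0746 without sheep 132 and 0.0943 without sheep 201. The fibrillar chains COL1A1 (0.01, SE 0.370) and COL1A2 (0.62, SE 0.431) had these log2 fold changes and were not called, although COL1A2 had an adjusted p of 0.0064 without sheep 131. Further called chains were COL5A2, COL5A3, COL6A2, COL6A6 and COL15A1, with log2 fold changes of 0.57, 0.68, 0.54, 2.03 and 0.48. Of these 5, only COL6A6 was called without each sheep in turn. COL3A1, the last of the 8 called chains, was higher by a log2 fold change of 0.65. Its adjusted p was 0.133, 0.0999 and 0.0587 without sheep 98, 132 and 201.

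Of 45 tested members of the other matrix list 7 were higher and 9 lower (35.6% called, against 21.8% of all genes). These numbers were 3 and 5 without sheep 98. The lower members numbered 5, 15 and 4 without sheep 131, 132 and 201. EFEMP1, a fibulin, was at 46.2, 58.7, 62.0 and 93.3 CPM in subcutaneous and 420.3, 337, 409.7 and 274 CPM in perirenal fat (log2 fold change -2.46, SE 0.242, adjusted p = 5.96e-04), and FBLN5, another, at 12.5, 16.2, 10.49 and 22.7 CPM in subcutaneous and 36.8, 95.8, 39.4 and 70.8 CPM in perirenal fat (log2 fold change -1.89, SE 0.198, adjusted p = 3.76e-04). Both were higher in every perirenal library than in any subcutaneous one. EMILIN1, MFAP2, EFEMP2 and FBN1 had log2 fold changes of -1.998, -0.94, -0.91 and -0.63, and MFAP2, EFEMP2 and FBN1 were not called without sheep 131 or without sheep 201 (adjusted p 0.0763 to 0.141), nor MFAP2 and EFEMP2 without sheep 98. CCN5, a matricellular protein, and LOX, which crosslinks collagen and elastin, were higher, at 27.5 ± 6.12 CPM in subcutaneous and 8.93 ± 3.25 CPM in perirenal fat (log2 fold change 1.68, SE 0.225, adjusted p = 0.00122) and at 185 ± 61.5 CPM in subcutaneous and 91.0 ± 35.0 CPM in perirenal fat (log2 fold change 1.08, SE 0.163, adjusted p = 0.00221). Other genes of elastic fibres in the list were not called, with log2 fold changes of 0.51 for elastin (ELN), -1.01 for FBLN1, 0.81 for FBLN2, 0.06 for MFAP4 and -0.31 for MFAP5.

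Progenitor and fibroblast markers were likewise split, 7 higher and 7 lower of 27 tested (51.9% called, against 21.8% of all genes). The higher ones included GPC3, a glypican, at 884, 429, 804 and 654 CPM in subcutaneous and 268, 248, 292 and 249.9 CPM in perirenal fat (log2 fold change 1.37, SE 0.163, adjusted p = 7.40e-04), FAP, a fibroblast surface protease, at 218, 149, 151 and 131 CPM in subcutaneous and 65.4, 71.0, 79.1 and 55.6 CPM in perirenal fat (log2 fold change 1.27, SE 0.155, adjusted p = 8.50e-04), and GSN, an actin severing protein, at 557, 455, 1226 and 684 CPM in subcutaneous and 184, 224, 294 and 193 CPM in perirenal fat (log2 fold change 1.65, SE 0.175, adjusted p = 3.83e-04). The lower ones included APOD, a lipocalin, at 49.8, 71.7, 44.9 and 115 CPM in subcutaneous and 285, 313, 129 and 289 CPM in perirenal fat (log2 fold change -1.84, SE 0.198, adjusted p = 5.96e-04), and PI16, which marks interstitial progenitors, with a log2 fold change of -2.39. GPC3, FAP, GSN and APOD did not overlap between the depots. PDGFRA, a general marker of the lineage, was at 79.1 ± 7.34 CPM in subcutaneous and 115 ± 32.8 CPM in perirenal fat (log2 fold change -0.48, SE 0.149, adjusted p = 0.0431), and was not called without sheep 98, 131 or 132 (adjusted p 0.0831 to 0.136). The 7 higher members numbered 7 without each sheep in turn, and the lower ones 3 without sheep 131.

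**Figure D4:**
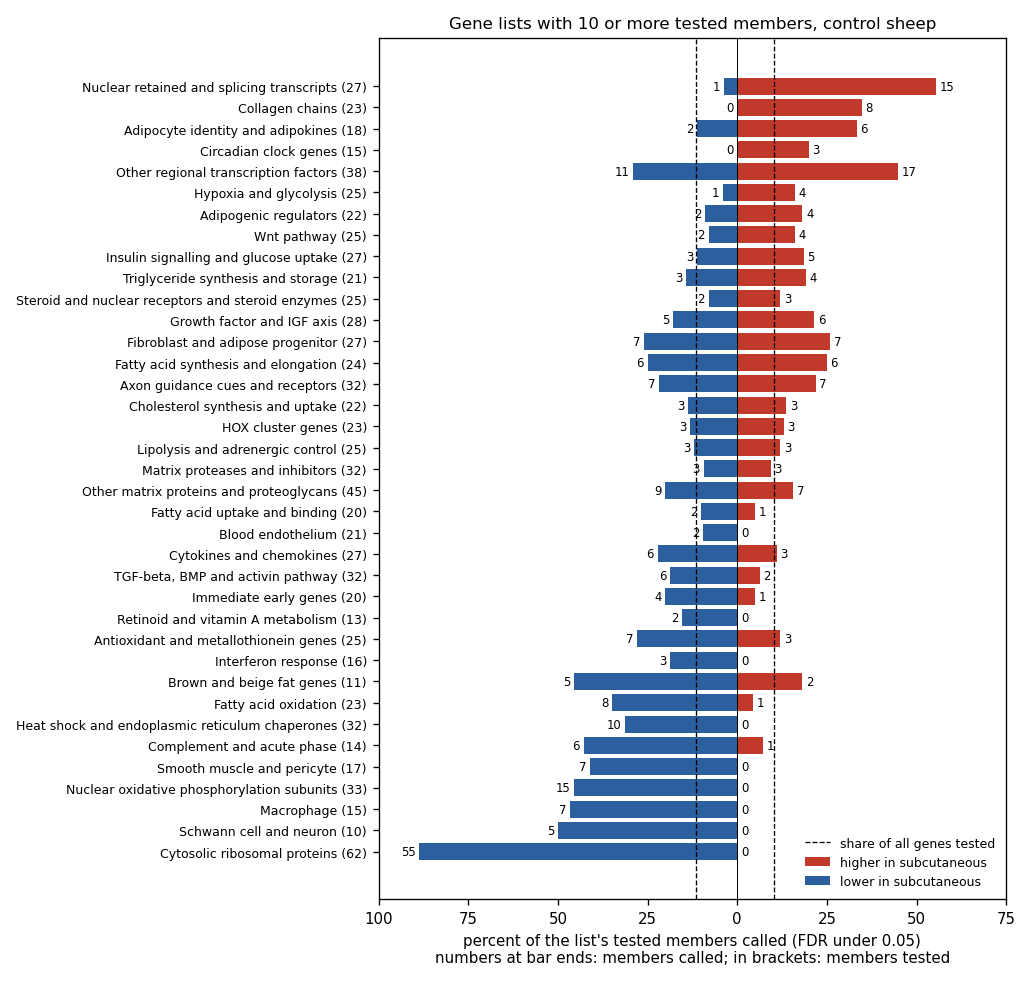
Share of tested members called higher (red, to the right) or lower (blue, to the left) in each gene list with 10 or more tested members, in percent, with counts at the bar ends and members tested in brackets. Dashed lines mark the 10.3% and 11.5% of all genes called higher and lower. Ribosomal proteins reach 55 of 62 on the left, splicing transcripts 15 of 27 on the right, and regional transcription factors extend past both lines.

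Clock genes had 3 of 15 tested members higher and 0 lower (20% called, near the 21.8% of all genes), with a median of 0.02. PER1, a repressor of the clock that also responds to glucocorticoids, was at 75.5, 72.2, 68.7 and 79.9 CPM in subcutaneous and 33.8, 25.7, 23.2 and 45.8 CPM in perirenal fat (log2 fold change 1.28, SE 0.168, adjusted p = 0.00121). TEF, an output gene, was at 40.3 ± 11.3 CPM in subcutaneous and 21.2 ± 6.53 CPM in perirenal fat (log2 fold change 0.96, SE 0.194, adjusted p = 0.00748), and PER3 at 14.2 ± 5.72 CPM in subcutaneous and 5.37 ± 2.80 CPM in perirenal fat (log2 fold change 1.496, SE 0.371, adjusted p = 0.0202). The adjusted p of PER3 was 0.10 without sheep 98. The time of day of sampling is not given in the sources used here.

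Among the immune cell lists, all called macrophage, T and NK cell genes were lower, and the 1 called B cell gene was higher. Of 15 tested macrophage genes 7 were lower in subcutaneous fat and 0 higher (46.7% called, against 21.8% of all genes). The median log2 fold change was -0.56, and the list's summed level was 530.3 to 749.5 CPM against 836 to 1178 CPM. TYROBP, a signalling adaptor of myeloid cells, was at 36.4, 17.8, 12.7 and 17.1 CPM in subcutaneous and 65.2, 59.1, 42.8 and 49.6 CPM in perirenal fat (log2 fold change -1.42, SE 0.190, adjusted p = 0.00122), and C1QC, a complement chain made by macrophages, at 115, 105, 88.8 and 144 CPM in subcutaneous and 294, 139, 157 and 291 CPM in perirenal fat (log2 fold change -0.88, SE 0.156, adjusted p = 0.00428). Without sheep 98 the macrophage genes lower numbered 2. Of 22 T and NK cell genes 7 were tested and 5 of them lower, against 11.5% of all genes, with 1, 2 and 3 lower without sheep 98, 132 and 201. Genes this low could pass the filter on low counts through the perirenal libraries alone, which bears on the direction of those tested. The summed level of all 22, tested or not, was 66.1 to 136 CPM in perirenal and 19.2 to 39.6 CPM in subcutaneous libraries. CD3G, a chain of the T cell receptor complex, was at 1.68, 6.11, 2.23 and 4.18 CPM in subcutaneous and 25.4, 16.7, 20.5 and 12.2 CPM in perirenal fat (log2 fold change -2.37, SE 0.398, adjusted p = 0.00445). Of 3 tested B and plasma cell genes 1 was higher and 0 lower. The list's summed level overlapped, at 29.7 to 70.3 CPM in subcutaneous and 23.4 to 36.5 CPM in perirenal libraries. JCHAIN held 61.3% of this sum. The gene called higher was CR2, a complement receptor of B cells (log2 fold change 2.09, adjusted p = 0.0210). The adjusted p of CR2 was 0.0722, 0.0702 and 0.0534 without sheep 98, 131 and 132. Of 14 complement and acute phase genes 6 were lower and 1 higher (50% called, against 21.8% of all genes). The lower ones included C1S at 81.2, 105, 144 and 105 CPM in subcutaneous and 188, 192, 313 and 218 CPM in perirenal fat (log2 fold change -1.04, SE 0.121, adjusted p = 6.50e-04). Another was the transferrin gene TF at 7.91, 23.1, 23.4 and 20.6 CPM in subcutaneous and 62.1, 94.2, 66.2 and 65.6 CPM in perirenal fat (log2 fold change -1.97, SE 0.228, adjusted p = 7.59e-04).

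Smooth muscle and pericyte genes were lower in 7 of 17 tested members and higher in 0, with a median of -0.59. ACTA2, smooth muscle actin, was at 107, 194, 46.2 and 67.1 CPM in subcutaneous and 252, 700.2, 176 and 215 CPM in perirenal fat (log2 fold change -1.65, SE 0.147, adjusted p = 2.01e-04), and MYLK, the kinase of smooth muscle myosin, at 309.8, 245, 385 and 288 CPM in subcutaneous and 598, 901, 802 and 528 CPM in perirenal fat (log2 fold change -1.16, SE 0.177, adjusted p = 0.00236). Perirenal sheep 131 held the highest value of both. ACTA2 overlapped between the depots, since subcutaneous sheep 131 exceeded perirenal sheep 132, while it was lower in subcutaneous fat in 4 of 4 sheep. The summed level of the list was 835 to 1107 CPM against 1407 to 2725 CPM. Blood endothelium had 2 lower and 0 higher of 21 tested members, a share below the 11.5% of all genes.

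Lists of markers of tissues next to either depot held members without a count. Of 18 kidney epithelium genes 6 had no count in any of the 8 libraries, and AQP3, a water and glycerol channel, held 98.9% of the list's sum, which was 114 to 443 CPM in subcutaneous and 454 to 902 CPM in perirenal fat. Of 13 adrenal genes 8 had no count, and FDX1, which many tissues express, held 98.6% of the sum. The skeletal muscle sum was 116 to 179 CPM in subcutaneous and 31.4 to 61.5 CPM in perirenal fat. NEB held 94.1% of it, and 8 of its 19 genes had no count. Of 16 skin genes 4 had no count, and TRPS1 held 82.5% of the sum. Of 15 mesothelium genes 3 had no count, and the list's sum was 84.4 to 144 CPM in subcutaneous and 179 to 288 CPM in perirenal fat, without overlap. GPM6A held the largest part of it, 36.1%. Among these genes 6 were tested, of which WT1 and KRT8 were lower (KRT8 with an adjusted p of 0.058 without sheep 132), while the mesothelial genes MSLN and UPK3B had at most 0.265 CPM in any of the 8 libraries.

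The same depot contrast in the 4 testosterone sheep called 938 of 12648 genes (7.42%), 490 higher and 448 lower. These sheep and libraries are not shared with the control contrast. Their ribosomal sums were 47423 to 74724 CPM in subcutaneous and 71061 to 109272 CPM in perirenal libraries, with overlap. Their nuclear sums were 12206 to 74930.5 CPM and 8265 to 11768 CPM, without overlap. How far the agreement below follows these sums, which also moved with the depot in the controls, was not tested. Of 2664 genes called in the controls and tested in both, 2534 (95.1%) had the same sign in the testosterone sheep, and 631 were called in the same direction. Those 631 were 23.7% of the control calls and 70.0% of the 901 testosterone calls tested in both, and 2 genes were called in opposite directions. Among 9561 genes not called in controls, 268 (2.80%) were called in the testosterone sheep. The share of these 9561 genes with the same sign was not computed, so the 95.1% has no baseline here. Since only the control contrast chose these genes, sizes in it are a description. The median size of the log2 fold change of the control calls was 0.84 in the controls, where they were chosen, and 0.63 in the testosterone sheep. Without sheep 48, whose subcutaneous library stood apart, 590 genes were called in the testosterone sheep, and 321 to 372 without each of the other sheep.

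In the testosterone sheep 7.42% of all genes were called, against 21.8% in the controls. Of 37 regional transcription factors tested in the testosterone sheep 10 were higher and 7 lower there, against 17 and 11 of 38 in the controls. WT1 had a log2 fold change of -6.03 there against -5.86 in the controls, IRX5 2.38 against 2.77, HOXB6 2.08 against 1.94, and HOXA10 -3.20 against -1.64. ADRB3 was at -4.26 against -4.62, SLIT2 at -3.09 against -3.05, VEGFD at -2.23 against -2.02, and BMP2 at 1.75 against 1.71. IGF1 was at -1.98 against -2.78. Each of these 9 was called in both groups of sheep, with edgeR adjusted p in the testosterone sheep from 1.17e-05 for WT1 to 0.00828 for IRX5. Other genes described above were not called there. EDIL3 had a log2 fold change of 1.45 (adjusted p = 0.330) in the testosterone sheep, ITGA8 -0.55 (adjusted p = 0.512), RELN -0.64 (adjusted p = 0.286) and FGFR1 0.07 (adjusted p = 0.865).

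Over all genes tested, 7.42% were called in the testosterone sheep and 21.8% in the controls. Of the 24 genes of fatty acid synthesis 0 were higher and 1 lower in the testosterone sheep, against 6 and 6 in the controls. The lower one was ACSS1, of mitochondrial acetyl-CoA synthesis, with a log2 fold change of -1.07 (adjusted p = 0.0161) against -0.50 in the controls, where its adjusted p was 0.0603 to 0.2204 without each sheep in turn. In the testosterone sheep SCD had a log2 fold change of 1.84 (adjusted p = 0.0998), ELOVL6 0.19 (adjusted p = 0.747), FASN 0.32 (adjusted p = 0.412), ACACA 0.09 (adjusted p = 0.856) and ACACB -1.06 (adjusted p = 0.1999). The differences of these log2 fold changes, control minus testosterone, were 1.29, 0.84, 0.71, 0.67 and -2.997, with adjusted p from 0.614 to 0.850. None of these differences passed the test. The smooth muscle list had 3 members higher and 0 lower in the testosterone sheep, with ACTA2 at 0.75 (difference -2.40, adjusted p = 0.620).

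Tested directly over both groups of sheep, the depot contrast differed between controls and testosterone sheep for 0 of 13215 genes (0%) by edgeR, while 827 had an unadjusted p under 0.05 and DESeq2 called 18. The lowest adjusted p, 0.167, was shared by SEMA3C, PCOLCE2 and ACKR3. SEMA3C, a semaphorin, was at 39.3, 114, 63.6 and 31.5 CPM in subcutaneous and 16.8, 61.0, 37.0 and 19.8 CPM in perirenal fat in controls, and at 9.20, 32.2, 36.4 and 3.23 CPM in subcutaneous and 18.2, 51.7, 55.5 and 12.05 CPM in perirenal fat of testosterone sheep 48, 185, 233 and 255. It was thus higher in subcutaneous fat of 4 of 4 controls and lower in 4 of 4 testosterone sheep (log2 fold change 0.92 against -0.94). For ACKR3, a scavenger receptor for the chemokine CXCL12, the log2 fold changes were 1.34 and -0.90. For PCOLCE2, an enhancer of procollagen processing, they were -0.08 and -2.15.

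**Figure D5:**
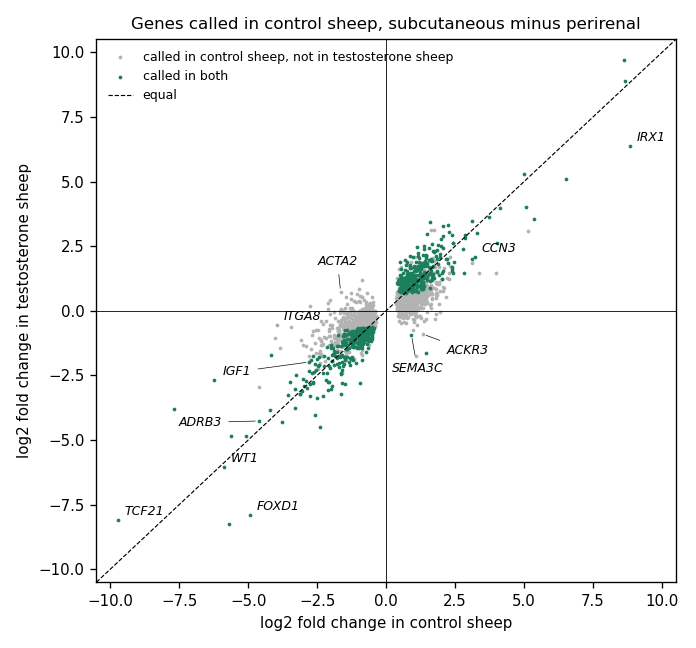
Log2 fold change, subcutaneous minus perirenal, of genes called in control sheep (x axis) against the same in testosterone sheep (y axis), green where also called there and grey where not. Most points lie in the lower left and upper right quadrants, 95.1% with the same sign, and SEMA3C, ACKR3 and ACTA2 are labelled among the exceptions.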

How the data were processed

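Fat from 8 ewes was sequenced with the QuantSeq 3′ kit, per the labels' protocols, from RNA of integrity 7 or more. The authors deposited a table of unnormalized counts with 28524 genes and 32 libraries. Tools named, per the submitters' processing notes, are DESeq2 1.24.0 in R 3.6.3, featureCounts 1.6.1, the aligner STAR, Trimmomatic 0.36 and, for quality reports, MultiQC 0.9 with FastQC 0.11.5. Genome build, annotation and strand setting were not given in the sources used here. The lists, the rules and the members were chosen with earlier results of these data known.

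The 8 control libraries were tested with the quasi-likelihood test of edgeR 4.0.16 in R 4.3.3 (robust, TMM scaling, low counts removed by filterByExpr at a minimum of 10, the sheep as a block), with Benjamini-Hochberg adjustment over all genes tested. SEs are the log2 fold change over the root of F. Printed CPM use TMM factors of all 32 libraries. The series' design states that each sheep gave all 4 depots. Deviations of the 2 depots of a control sheep correlated across genes at 0.246 to 0.336, those of different sheep at -0.188 to -0.0166. The testosterone sheep (same-sheep 0.111 to 0.514) were fitted in the same way, and the difference of contrasts in 1 fit of 16 libraries. Of 24 pairs of replicate libraries 0 were identical. Scripts were tested on simulated counts.

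Genes were named by rule: per direction, among genes called, alike in 4 of 4 pairs and without overlap, the 12 largest changes with 10 CPM or more, the 8 smallest p with 20 CPM or more, and the 8 most abundant with a log2 change of 0.5 or more, then up to 4 per list by p. Some genes that these rules select are not reported here. Other members named were chosen after their values were seen. Intervals of ratios are exact binomial ones at 95%, and floors use 3 counts. Both cover counting error only, since the counts carry no molecular identifiers here. Symbols of 22250 genes matched the RefSeq table of assembly ARS-UI_Ramb_v3.0, used for names and overlaps, and its coordinates are not printed. Alternatives used DESeq2 1.42.0, other scalings and filters, thinning, and leaving out each sheep.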

Additional observations from a re-analysis of the deposited data

Results flagged for a closer look

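In groups of 4 libraries, 56 of 568 groups (263 genes and the summed levels of cell type and quality lists, in each depot) held 1 library that lay beyond the 95% limit of Dixon's test, which compares the gap to the nearest other library with the group's range. Chance gives such a gap in about 1 in 20 groups of normally distributed values, and genes are not independent. A group with counts in only 1 library always holds such a gap, as for IRX1, TBX15 and HAND2 in perirenal and ALX1 in subcutaneous fat. The libraries held 7 (sheep 98), 9 (131), 8 (132) and 5 (201) of these gaps in perirenal fat, and 5, 4, 13 and 5 in subcutaneous fat. Values below are CPM, with the range of the other 3 libraries of the depot in brackets.

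Highest in subcutaneous sheep 98 were IRX2 at 54.9 (34.7 to 36.9) and CIDEA at 177 (89.1 to 98.7). Lowest in subcutaneous sheep 98 were HOXB8 at 9.82 (17.5 to 18.7), HSPD1 at 64.0 (99.0 to 102) and DMRT2 at 41.0 (52.0 to 53.9). Highest in subcutaneous sheep 131 were RARRES2 at 211 (175 to 179.9), BANK1 at 7.96 (3.83 to 4.37) and the summed level of the erythrocyte list at 49.1 (31.7 to 34.5). Lowest in subcutaneous sheep 131 was NDUFA1 at 126 (161 to 165). Highest in subcutaneous sheep 132 were TBX15 at 42.6 (15.3 to 19.6), CXCL14 at 74.8 (2.39 to 13.7), LRP1B at 4.02 (0.531 to 1.09), RELN at 4.46 (0.240 to 0.910), ADCY5 at 96.4 (53.4 to 59.9), LTBP1 at 44.6 (17.2 to 21.8), CCL21 at 7.59 (0 to 0.364), MMRN1 at 67.6 (8.19 to 18.3), COL4A2 at 615 (464 to 469) and NR2F1 at 72.8 (30.9 to 37.4). Lowest in subcutaneous sheep 132 were RYR2 at 2.46 (9.10 to 10.2), GATA6 at 4.24 (4.91 to 5.04) and the summed level of the cardiac muscle list at 4.02 (11.6 to 12.7). Highest in subcutaneous sheep 201 were HSP90AA1 at 2539 (2092 to 2137), DGAT1 at 4.37 (2.68 to 2.92), ALX1 at 0.182 (0 in all) and MSX2 at 5.64 (2.46 to 2.92). Lowest in subcutaneous sheep 201 was MARC2 at 40.7 (55.8 to 57.0). Highest in perirenal sheep 98 were TBX15 at 0.1503 (0 in all), EDIL3 at 16.8 (1.25 to 2.80), SLC2A1 at 11.7 (4.99 to 5.798) and the summed level of the T and NK cell list at 136 (66.1 to 71.5). Lowest in perirenal sheep 98 were B3GALNT1 at 400.3 (549.5 to 567), SLITRK6 at 10.7 (22.0 to 24.2) and MFAP5 at 61.5 (147 to 164). Highest in perirenal sheep 131 were ITGA8 at 102 (11.7 to 14.3), DECR1 at 188 (62.1 to 69.7), GPER1 at 1.87 (0.451 to 0.644), DUSP2 at 9.67 (2.00 to 3.09), ACTA2 at 700.2 (176 to 252), CNN1 at 48.8 (9.92 to 14.6), TF at 94.2 (62.1 to 66.2) and the summed level of the smooth muscle list at 2725 (1407 to 1574). Lowest in perirenal sheep 131 was RPS27A at 3871 (4708 to 4804). Highest in perirenal sheep 132 were IRX1 at 0.129 (0 in all), HSPD1 at 212 (155 to 158), S100A8 at 26.3 (2.96 to 4.96), MX1 at 117 (20.7 to 33.8), ISG15 at 30.9 (2.34 to 6.16), TNFSF10 at 8.63 (5.77 to 6.20) and the summed level of the interferon list at 759.7 (285 to 358). Lowest in perirenal sheep 132 was APOD at 129 (285 to 313). Highest in perirenal sheep 201 were INSIG1 at 233 (93.9 to 117) and HAND2 at 0.5998 (0 in all). Lowest in perirenal sheep 201 were MARC2 at 142 (171 to 174), KLF9 at 97.0 (120.5 to 123) and GPAT3 at 34.8 (61.3 to 64.4).

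In perirenal sheep 131 the smooth muscle genes ACTA2 and CNN1 and the list's sum stood out together, and in perirenal sheep 132 the interferon genes MX1 and ISG15 and the list's sum. Each of the 4 smooth muscle and interferon genes named here is also in its list's sum. In subcutaneous sheep 132 CCL21 and MMRN1, markers of lymphatic vessels, and RELN, another, stood out together. Of the lymphatic list 2 of 7 tested members were lower in subcutaneous fat (28.6% called, against 21.8% of all genes), and 4 without sheep 132. Of 17 tested smooth muscle genes 7 were lower, and 7 without sheep 131.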

How the results depend on the processing

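Pairing rests on the design, since each sheep gave both depots. Without the sheep as a block, 1915 genes were called in the control sheep, 144 in the testosterone sheep and 0 for the difference, and 182 of 228 named calls were retained. In the control sheep the 2707 calls became 2399 with DESeq2, 2697 with its size factors in edgeR, 2939 on library totals, 3140 without a filter, 2815 with at least 1 CPM in 4 libraries, 2322 after thinning to the shallowest library, 3158 in a fit of all 16 control libraries and 1852 in a fit of all 32. Leaving out 1 sheep gave 1195 (sheep 98) to 2344 (sheep 201), and 154 of the 228 named calls held in all 4 such fits. No named call changed sign in these fits, among 212 with a value after thinning.

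The covariates were chosen after seeing the data. With the ribosomal sum as a covariate in the 16 control libraries 92 genes were called, of which 82 were among the 2707 with the same sign. With the nuclear sum these counts were 482 and 439. With the ribosomal sum RPL37 (0.28), RPS27A (0.15), RPS29 (0.31), ETFB (0.11), ALDOA (-0.14), DPP4 (0.17) and HOXA3 (-0.055) changed the sign of their log2 fold change. The cause was not tested.

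In the testosterone sheep the 938 calls became 1423 with DESeq2, 2076 without a filter, 468 after thinning and 321 to 590 without 1 sheep, and 65.7% of 1000 calls on library totals were higher against 52.2%. For the difference, DESeq2 called 18, the fit without a filter 19, and fits without 1 sheep 0 to 1. The cause was not tested. The shallowest testosterone library held 784135 counts, which limits what that contrast can call among low genes.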

Other observations

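Steroid receptor and enzyme genes, listed because both groups carried the same implants, had 3 of 25 tested members higher and 2 lower (20% called, near the 21.8% of all genes). GPER1, the membrane estrogen receptor, was at 5.99, 5.31, 5.13 and 2.36 CPM in subcutaneous and 0.451, 1.87, 0.644 and 0.5998 CPM in perirenal fat (log2 fold change 2.47, SE 0.451, adjusted p = 0.00479), without overlap. In the testosterone sheep it had a log2 fold change of 1.90 (edgeR adjusted p = 0.0416). The 2 lower members were not called without sheep 98, 131 or 132.

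Among cholesterol genes 3 of 22 were higher and 3 lower (27.3% called, against 21.8% of all genes). DHCR7, the last enzyme of cholesterol synthesis, was at 0.958, 0.796, 0.223 and 0.910 CPM in subcutaneous and 6.46, 4.68, 3.61 and 5.998 CPM in perirenal fat (log2 fold change -2.81, SE 0.399, adjusted p = 0.00164). Antioxidant genes had 3 of 25 members higher, with SOD3 first, and 7 lower, with HMOX1, which degrades heme, at 26.4, 28.9, 33.7 and 40.0 CPM in subcutaneous and 58.7, 66.9, 74.3 and 108 CPM in perirenal fat (log2 fold change -1.21, SE 0.144, adjusted p = 7.22e-04). The 7 lower members numbered 2 without sheep 98 or sheep 131 and 4 without sheep 132 or sheep 201, and the 3 higher ones 1 without sheep 98. The 3 higher cholesterol genes numbered 0 without sheep 98 or sheep 132 and 1 without each of the others, and the 3 lower ones 1 without sheep 98.

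Matrix proteases and their inhibitors had 3 of 32 members higher and 3 lower. ADAMTS12, a secreted protease, was at 28.0, 29.5, 15.6 and 20.4 CPM in subcutaneous and 14.7, 7.80, 5.02 and 7.40 CPM in perirenal fat (log2 fold change 1.49, SE 0.219, adjusted p = 0.00194), and PLAT, the tissue plasminogen activator, at 12.9, 7.17, 4.46 and 11.3 CPM in subcutaneous and 34.4, 14.2, 9.15 and 25.2 CPM in perirenal fat (log2 fold change -1.14, SE 0.1998, adjusted p = 0.00402). The higher members numbered 1 without sheep 132. Cytokine and chemokine genes had 3 of 27 higher and 6 lower, 3 of them lower without sheep 98. Interferon response genes had 3 of 16 lower and 0 higher, with 0 lower without sheep 132. Hypoxia and glycolysis genes had 4 of 25 higher and 1 lower, with 1 higher without sheep 98, 131 or 132 and 2 without sheep 201. Immediate early genes had 1 of 20 higher and 4 lower, with 2 lower without sheep 132. Adipogenic regulators had 4 of 22 higher and 2 lower, and 0 lower without sheep 98. Shares of all genes were 10.3% higher and 11.5% lower.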
